A study of Mus musculus with 12 samples.

Results

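The 517 regions described here are stretches of RNA that were listed as N6-methyladenosine (m6A) peaks in mouse embryonic stem (ES) cells after knockdown of the m6A writer, and that had no listed peak in scramble control cells. They were chosen by measured values, namely by which peaks were listed in which library. A peak of a knockdown library was taken where it overlapped a peak of at least 1 other knockdown library by 1 nt or more on the same strand and overlapped no peak of either scramble library. Overlapping peaks were then merged. This gave 1233 member peaks in 517 regions, of 19748 knockdown peaks in 8106 merged knockdown regions and of 10747 merged regions over all 6 libraries. A further 4439 merged regions recurred between knockdown libraries and did have a scramble peak. Because the lists themselves chose the members, their number, tags and enrichment are given as a description and carry no test.

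The cells were J1 ES cells grown on irradiated mouse fibroblast feeders with leukemia inhibitory factor. They were infected with lentiviral shRNA vectors against Mettl14 (Mettl14 knockdown) or Mettl3 (Mettl3 knockdown), or with a scramble vector (Scramble control), and were selected with puromycin. Fragmented poly(A) RNA was pulled down with an anti-m6A antibody (IP), with 2 such IP libraries for each of the 3 conditions. Another 6 libraries were made without antibody and are not analysed here by themselves. The IP libraries fall into 2 sets of 1 Mettl14 knockdown, 1 Mettl3 knockdown and 1 scramble library, and both knockdowns of a set were set against the same scramble library. Nothing in the labels says whether the libraries of a group came from separate cultures, so differences between libraries may be technical.

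m6A is placed on mRNA by a complex in which Mettl3 carries the catalytic site and Mettl14 holds the RNA. The mark sits mostly at DRACH sequences (D any base but C, R a purine, H any base but G), often in long internal exons and near stop codons, and it is known in ES cells for speeding the decay of transcripts that encode developmental regulators. Knockdown of either subunit lowers the mark in general, so peaks listed only after knockdown run against that direction. Antibody peaks mark a stretch of RNA and not a single modified base.

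The sequence at the summit is shown for the 8 regions of highest tag count in all 4 knockdown libraries. Each run is 29 nt, 5′ to 3′ on the strand of the peak, from GENCODE M21 transcripts (GRCm38, the same assembly as mm10). The capitals mark the GGACT, or where there was none within 100 nt the DRACH, that lay nearest to the summit of the strongest peak.
Zfp281: cacagcagagagAAACCctttgggtgcga
Sall1: cggaggtgctttGGACTtgacttctagtc
Pelp1: cctgtgctgctcTGACAcacccccgagta
Thrap3: caagtgggcccaTGACAagttcagtgggg
Rif1: agtagccactgaGGACTttaattcaggta
Usp9x: agcacaaaatacAGACTtgtgggtgtgct
Mnt: gtcagcacccctGGACTcagcattaagga
D10Wsu102e: gattgaaattttGGACAgtccggcaagta
They lie at chr1:136626207-136626235 (+), chr8:89030552-89030580 (-), chr11:70395133-70395161 (-), chr4:126165476-126165504 (-), chr2:52112325-52112353 (+), chrX:13156240-13156268 (+), chr11:74836665-74836693 (+) and chr10:83365877-83365905 (+), in the order above. The run in Thrap3 and the run in D10Wsu102e fell within 100 nt of a stop codon, and the other 6 fell in coding sequence. The marked motif was closest to the summit in D10Wsu102e, Sall1 and Rif1, at 8, 9 and 10 nt, and farthest in Pelp1 and Thrap3, at 68 and 81 nt. A motif near a summit is a description and not a mapped site.

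Members made up a small part of each knockdown library. They were 379 of 5717 peaks (6.63%) in the Mettl14 library of set 1 and 307 of 4367 (7.03%) in that of set 2. In the Mettl3 libraries they were 274 of 5087 peaks (5.39%) in set 1 and 273 of 4577 (5.96%) in set 2. Peaks with no scramble peak, recurrent or not, were 15.8% and 18.5% of the Mettl14 libraries of set 1 and set 2, and 10.3% and 15.1% of the Mettl3 libraries. The scramble libraries listed 7886 peaks in set 1 and 5438 in set 2, more than either knockdown library of the same set. The depth of the libraries was not known, since the tables hold tags within peaks alone. The tables give no transcript level where no scramble peak is listed, so methylation and transcript level in scramble cells cannot be told apart for these regions.

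Only 40 of the 517 regions (7.74%) had a member peak in all 4 knockdown libraries, and 121 (23.4%) had one in 3. Exactly 2 libraries were behind 337 regions (65.2%). Of these, 83 came from both Mettl14 libraries and 31 from both Mettl3 libraries, 145 from 1 library of each knockdown in the same set, and 78 from 1 of each in different sets. In the remaining 19 regions (3.68%), 1 library held the member peak and its partner was a wider peak that reached a scramble peak. Regions with a member peak in both sets numbered 353 (68.3%), and 384 (74.3%) had one in both knockdowns. The Mettl14 library of set 1 was the longest knockdown list, and the smallest combination of 3 was the one without it, with 11 regions.

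**Figure D1:**
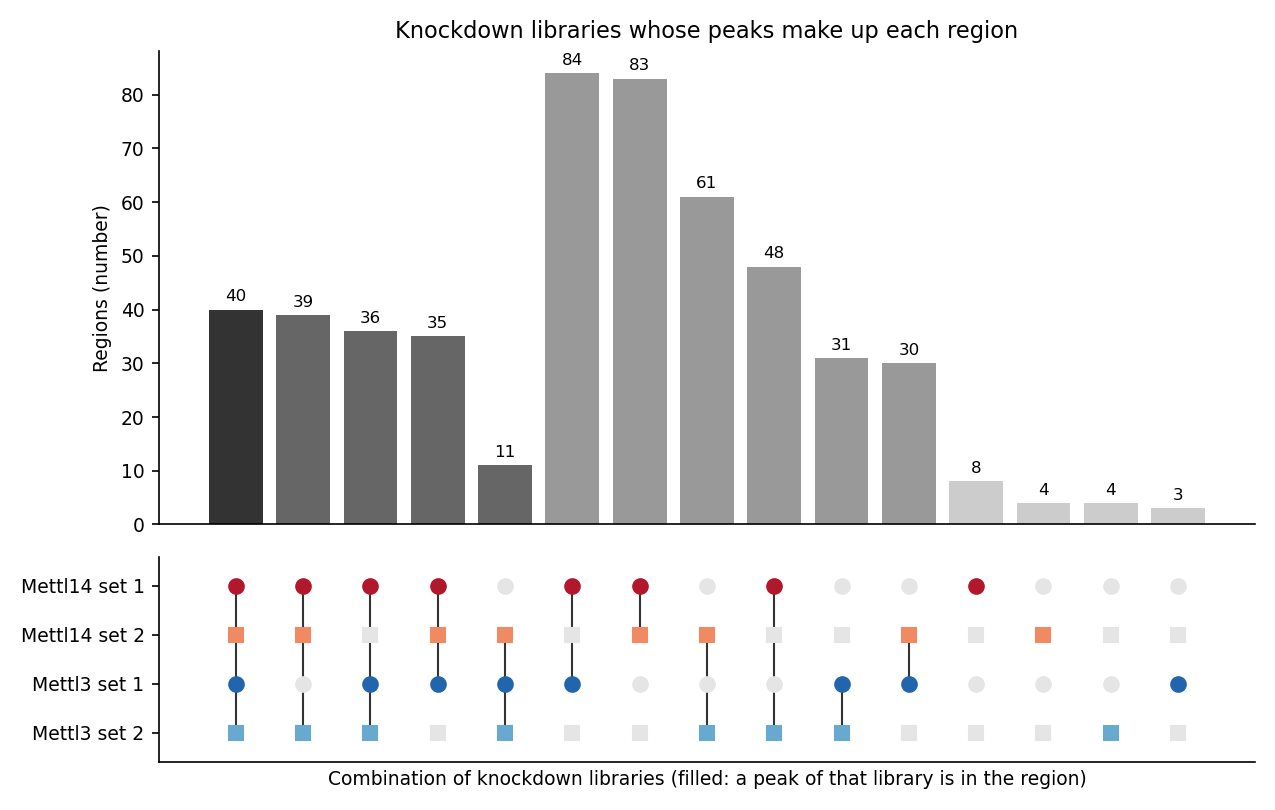
Number of regions (vertical axis) for each combination of knockdown libraries, with the libraries of a combination marked by filled symbols below its bar. All 4 libraries met in 40 regions, and the largest pairs were the 2 set 1 libraries with 84 regions and the 2 Mettl14 libraries with 83.

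Member peaks were narrower and held fewer tags than recurrent knockdown peaks that also had a scramble peak. A tag is a sequenced read position in the peak, and fold enrichment is the deposited ratio of IP to that library's own control. Folds are given unscaled. The deposited scaled ratio multiplies them by 0.906 and 0.777 in the Mettl14 libraries of set 1 and set 2. In the Mettl3 libraries the constants are 1.00 and 0.609, so folds of different libraries compare otherwise once scaled. Median width was 300 nt for the 1233 member peaks and 600 nt for the 15340 recurrent peaks with a scramble peak, and median tags were 24 and 81. By library, median tags of member peaks were 22 and 29 in the Mettl14 libraries of set 1 and set 2 and 22 and 25 in the Mettl3 libraries, against 74, 92, 81 and 81 for recurrent peaks with a scramble peak in the same order. Median fold ran the other way, at 33.9, 27.3, 51.3 and 23.3 for member peaks against 15.2, 12.0, 16.9 and 11.7.

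That higher median fold followed the tag count. Of the 1233 member peaks, 518 (42.0%) held fewer than 20 tags, and these had a median fold of 127. The 521 member peaks with 20 to 99 tags had a median fold of 18.6, and the 194 with 100 or more had 5.63. Recurrent peaks with a scramble peak had medians of 104, 17.6 and 9.15 in the same tag ranges. Peaks of 1 knockdown library with no scramble peak had 127, 15.4 and 5.75. In the highest tag range the members were thus lower than recurrent peaks with a scramble peak and near the single-library peaks. Merged regions spanned 61 to 3110 nt with a median of 343 nt and covered 254 kb in all. Their strongest peak held 5 to 928 tags with a median of 27, and 89 regions (17.2%) reached 100 tags while 185 (35.8%) stayed under 20 in every library.

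**Figure D2:**
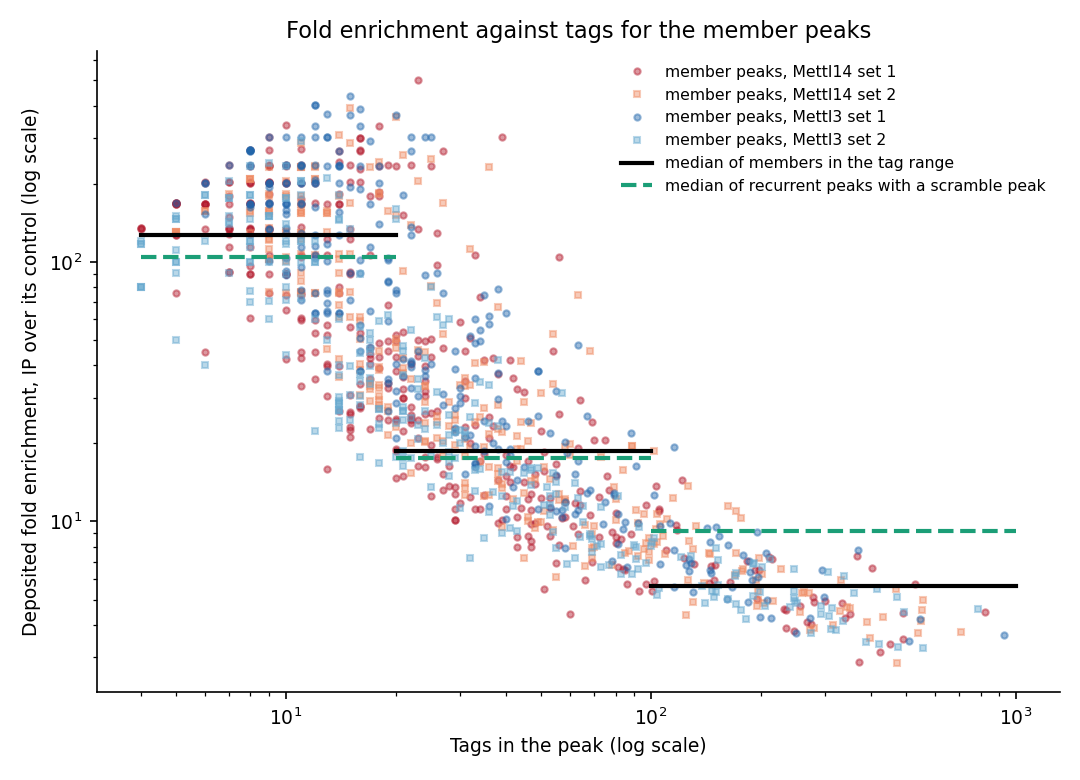
Deposited fold enrichment (vertical, log scale) against tags (horizontal, log scale) for the 1233 member peaks, with the median fold of members (solid) and of recurrent peaks with a scramble peak (dashed) in 3 tag ranges. Fold falls as tags rise, from a member median of 127 under 20 tags to 5.63 at 100 or more, where the other recurrent peaks have 9.15.

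Many member peaks scored below the lowest score that the tables give for a scramble peak of their set. The score of a peak, as deposited, is the p-value of the peak caller as minus 10 times its log10. Scramble peaks carry a score only where a table lists them as absent from its knockdown library, which held for 4278 of 7886 (54.2%) in set 1 and 2970 of 5438 (54.6%) in set 2, so the scores of the others were not known. The lowest score given for a scramble peak was 142.5 in set 1 and 204.4 in set 2. The Mettl14 lists ended at 107.5 in set 1 and 137.4 in set 2, and the Mettl3 lists at 146.1 and 116.3, and these lowest scores were the same among the peaks listed as absent from the scramble library alone. In the Mettl3 library of set 2, 231 of 273 member peaks (84.6%) scored below the lowest score given for their own scramble library, as did 197 of 307 (64.2%) in the Mettl14 library of set 2 and 136 of 379 (35.9%) in the Mettl14 library of set 1. No member peak of the Mettl3 library of set 1 did. With knockdown peaks held to that lowest score of their own scramble library, 199 regions were left, and with the higher of the 2 floors for every library, 90 were left. The 90 included 6 regions in all 4 libraries, on Zfp281, Pou3f2, Tmem229a, Tmem200a, Ghr and Cxx1a. Another 14 regions were in 3 libraries, among them Sall1, Fgf5, Gdf6, Pde4b, Msh6 and both regions of Zfp608. The effect of the unequal floors on which regions were listed was not tested beyond these counts.

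**Figure D3:**
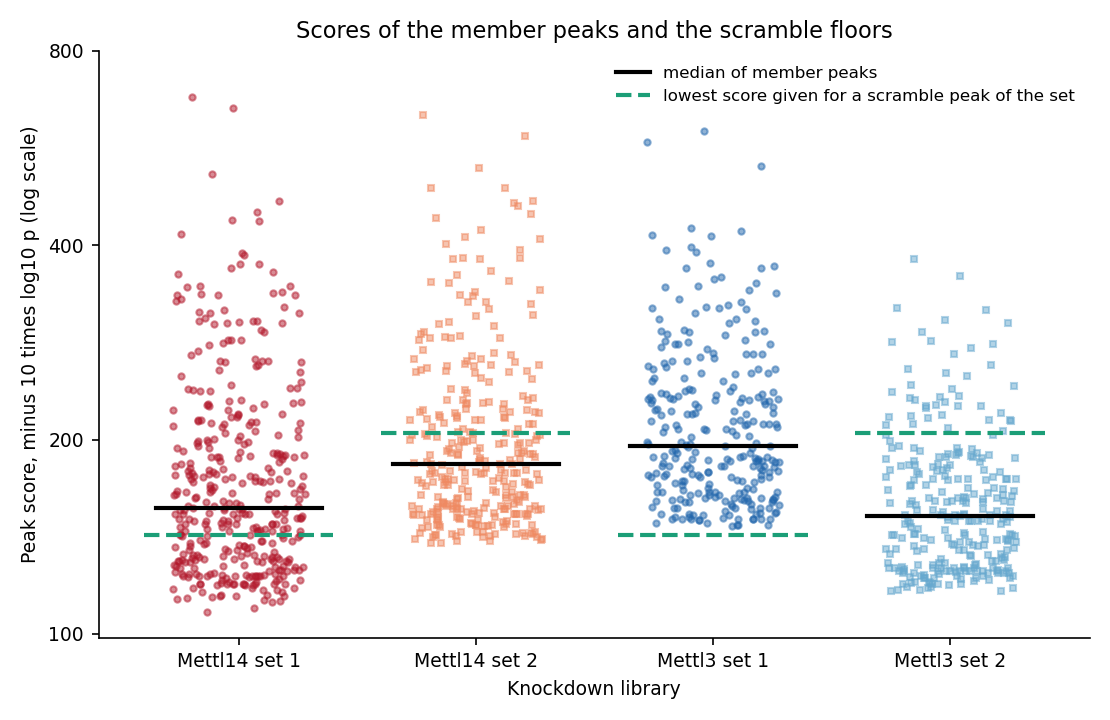
Peak score (vertical, log scale) of every member peak in the 4 knockdown libraries, with their median (solid line) and the lowest score given for a scramble peak of the same set (dashed line). The dashed line stands at 204.4 in set 2, above the median member peak of both set 2 libraries, and at 142.5 in set 1, below the median of both.

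Among the regions found in all 4 knockdown libraries, 35 of 40 lay on a gene that the deposited tables name. By general knowledge of these genes, grouped after their values were seen, 9 encode DNA-binding factors and 5 encode secreted signals or their antagonists. A further 6 encode transmembrane proteins, receptors or channels, and 3 encode enzymes that attach or remove ubiquitin. The largest number, 12, have another role. How common these roles are among all genes with a knockdown peak was not counted, so the numbers only describe the regions. The groups below follow these roles.

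The transcription factor Zfp281, which promotes the exit from naive pluripotency, held the strongest of these regions by the tag count of its weakest library. Its region, chr1:136625187-136627968 (+), is 2782 nt wide and lies in coding sequence in an exon of 4786 nt. The strongest peak held 368 and 554 tags in the Mettl14 libraries of set 1 and set 2 and 370 and 471 in the Mettl3 libraries, with folds of 7.37, 4.55, 7.77 and 5.12. All 4 libraries were within a narrow range in tags and in unscaled fold. Each library also listed a second peak inside the region, with 105, 108, 116 and 90 tags in the same order. The nearest scramble peak on the same strand was 79614 nt away, but a scramble peak was listed on the opposite strand at this place.

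Sall1, a spalt-family zinc finger factor expressed in ES cells and needed for kidney development, held the widest region, 3110 nt at chr8:89029943-89033052 (-) in coding sequence. It had 528 and 708 tags in the Mettl14 libraries and 298 and 494 in the Mettl3 libraries, with folds of 5.74, 3.76, 5.13 and 4.49. Both Mettl14 libraries held more tags than the Mettl3 library of the same set, with no adjustment for depth or peak width. In unscaled fold this held in set 1 alone. Unlike Zfp281, Sall1 had a scramble peak elsewhere on the gene, 9561 nt away. Mnt, which binds Max and opposes Myc, had 146, 170, 185 and 153 tags and folds of 6.71, 6.20, 4.88 and 5.70. The order is Mettl14 set 1, Mettl14 set 2, Mettl3 set 1, Mettl3 set 2, and its libraries differed little in tags or unscaled fold.

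The other DNA-binding factors had fewer tags and higher folds. In the order just given, Pou3f2, a POU factor of neural precursors, had 39, 35, 25 and 22 tags with folds of 303, 41.2, 303 and 54.5. Its folds split by set and not by knockdown. Bcl11a, a zinc finger repressor, had 26, 38, 36 and 23 tags and lay 80 nt from a scramble peak. Bhlhe22, a neural bHLH factor, had 16, 33, 9 and 14 tags in its 5′ UTR. Zfp608, a zinc finger gene, had 122, 126, 75 and 62 tags in 1 region and a second region in 3 libraries that lay 194 nt from a scramble peak. Gm13051, named Zfp987 in the annotation, had 50, 79, 55 and 52 tags, but it belongs to a large family of near-identical zinc finger genes, so the origin of its reads is uncertain.

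Secreted signals were the second group. Fgf5, a growth factor that marks the primitive ectoderm formed when ES cells leave the naive state, had 118 and 99 tags in the Mettl14 libraries of set 1 and set 2 and 85 and 54 in the Mettl3 libraries. Its folds were almost level before scaling, at 9.29, 8.66, 9.97 and 9.12, and the unequal scaling constants would spread them. The region at chr5:98275211-98275883 (+) is 673 nt wide and lies in coding sequence, and no scramble peak was listed anywhere on the gene. Bmp2, a bone morphogenetic protein, had 11, 23, 10 and 28 tags and folds of 75.8, 206, 167 and 60.0. Gdf6, another ligand of that family, had 27, 36, 9 and 20 tags in a region at its stop codon and folds of 268, 231, 134 and 146. The antagonist of these ligands, Nog, had 43, 43, 30 and 21 tags and folds of 32.5, 19.0, 28.6 and 26.7. Wnt5b, a Wnt ligand, had 19, 9, 12 and 18 tags in an intron, with a scramble peak on the opposite strand. Of these 5 genes, only Wnt5b had a scramble peak elsewhere on its strand. With so few tags in Bmp2, Gdf6 and Wnt5b, a handful of reads set the fold, and their libraries cannot be ranked.

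Genes of genome maintenance, protein turnover and nuclear regulation carried further regions. Rif1, which acts in replication timing and double-strand break repair, had 198 and 558 tags in the Mettl14 libraries of set 1 and set 2 and 208 and 182 in the Mettl3 libraries, with folds of 6.49, 4.98, 4.96 and 4.20. The Mettl14 library of set 2 stood apart in tags but not in fold, and the tags were not adjusted for depth or peak width. Xpc, which recognises damaged DNA in nucleotide excision repair, had 131, 171, 154 and 69 tags. Usp9x, a deubiquitinase, had 149, 196, 167 and 147 tags with folds between 5.38 and 5.96. The ubiquitin ligase March8 had 33 to 49 tags at folds of 9.47 to 16.7. Rnf139, another ubiquitin ligase, had 32 to 54 tags at folds of 13.9 to 52.7 and lay 579 nt from a scramble peak. Pelp1, a nuclear receptor coregulator, had 278, 352, 199 and 314 tags. Thrap3, a nuclear RNA-processing factor, had 234, 216, 249 and 190 tags. None of Rif1, Xpc, Usp9x, Pelp1 or Thrap3 had a scramble peak on the gene. D10Wsu102e, whose role is not given here, had 83, 103, 81 and 73 tags at its stop codon.

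Receptors, channels and other membrane proteins formed the third group. Ghr, the growth hormone receptor, had 54, 68, 49 and 36 tags and folds of 45.3, 45.5, 38.1 and 24.0. Tmem200a had 55, 89, 63 and 57 tags and folds of 16.6, 19.5, 47.6 and 31.1. Kcnq3, a potassium channel subunit, had 12, 17, 9 and 21 tags, and Tmem132c had 8, 9, 9 and 10, the fewest of the 40. Pde4b, a phosphodiesterase that breaks down cyclic AMP, had 18, 14, 20 and 12 tags with folds from 77.7 to 335. A region with no listed gene at chr17:24404918-24405107 (-) had 11, 12, 17 and 11 tags and folds of 104, 106, 114 and 120. Before scaling these were the most even folds of the low-tag regions named here.

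**Figure D4:**
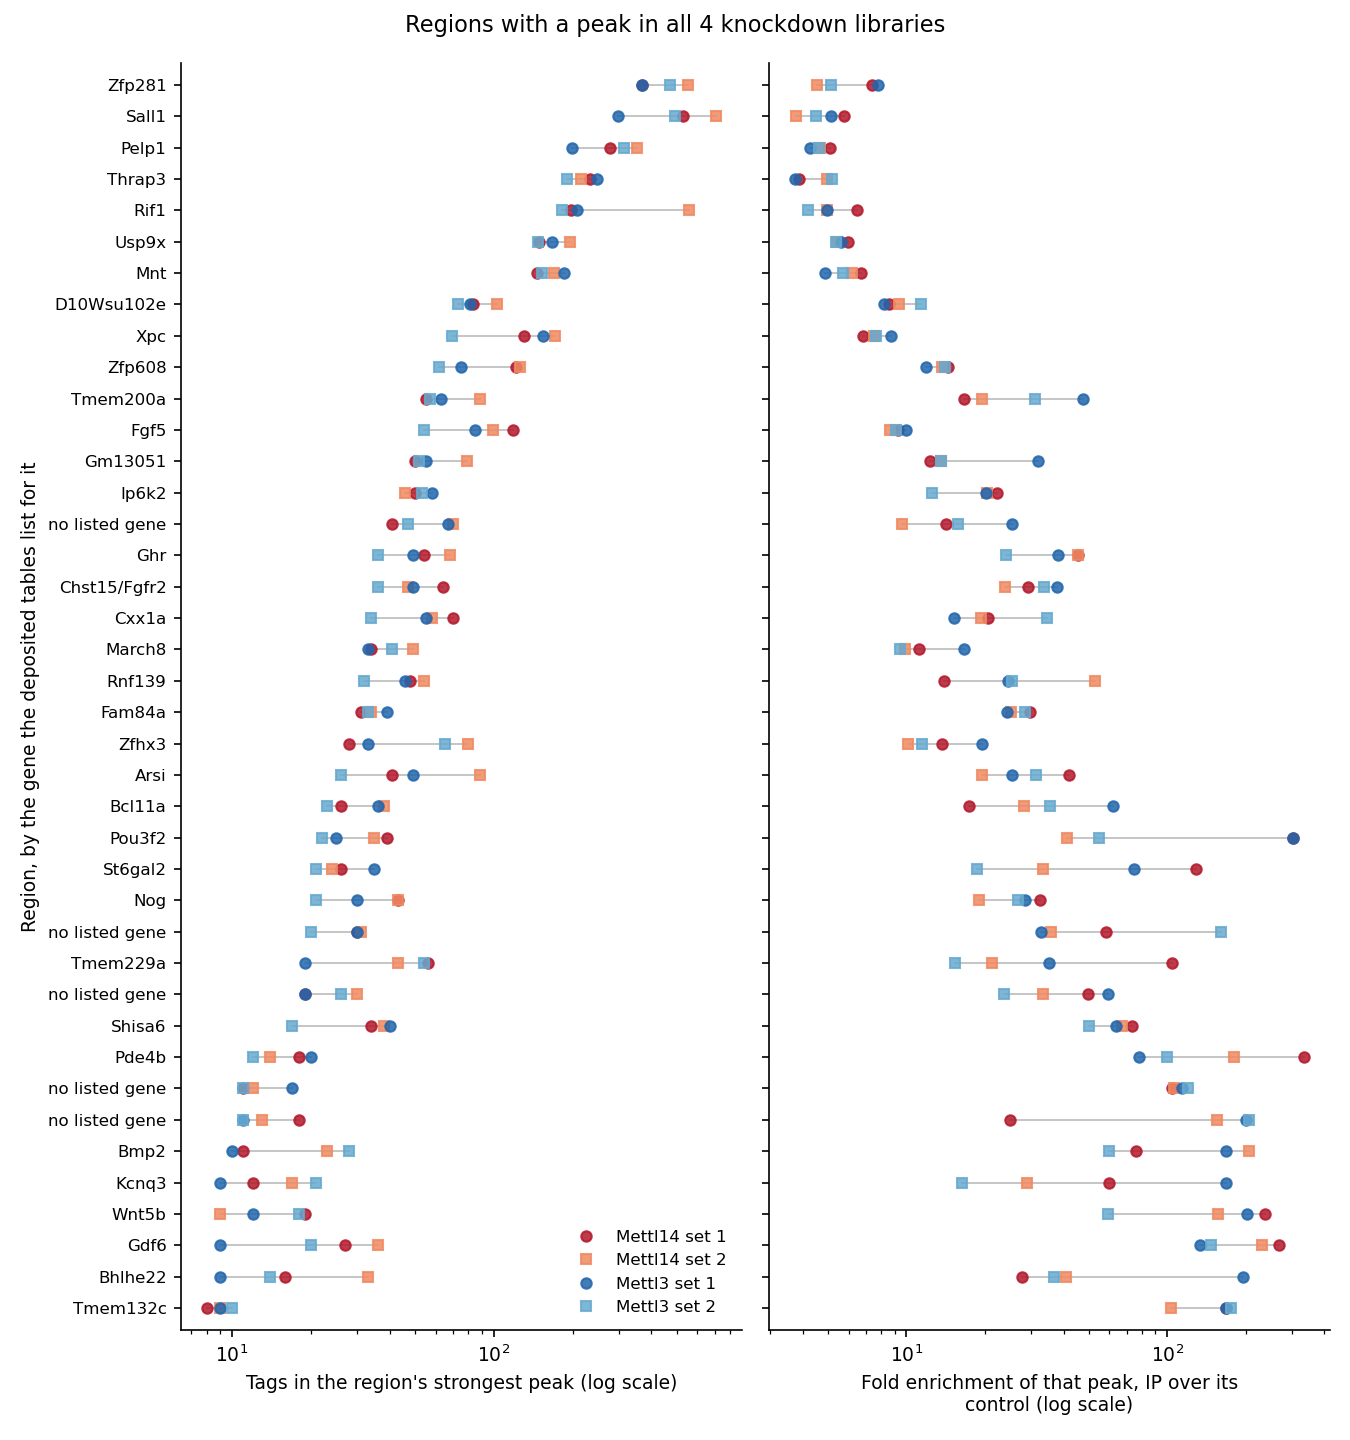
Tags (left, log scale) and fold enrichment (right, log scale) in each of the 4 knockdown libraries for the 40 regions present in all of them, ordered by the tag count of the weakest library. The 7 regions at the top, from Zfp281 to Mnt, have more than 100 tags and folds between 3.73 and 7.77 in every library, and those at the bottom have few tags and folds that spread widely between libraries, as in Kcnq3 from 16.3 to 168.

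Some regions had a peak in both libraries of 1 knockdown and no member peak in the other. The strongest of the 83 in both Mettl14 libraries was on Dsp, which encodes desmoplakin of cell junctions, with 352 tags in set 1 and 470 in set 2 and folds of 4.39 and 5.48. Tro, which encodes trophinin, had 267 and 345 tags, and Bcl2l1, which encodes the survival protein Bcl-xL, had 247 and 256. Mllt4, named Afdn in the annotation, encodes the junction protein afadin and had 231 and 280. The fifth had no listed gene: it lay at chr11:69734340-69735501 (+), had 150 and 198 tags, and runs opposite to Polr2a, the largest subunit of RNA polymerase II. In the Mettl14 library of set 1, Dsp scored 142.4, Tro 122.3 and Mllt4 129.7, below the 142.5 that is the lowest score given for a scramble peak of that set. In the Mettl14 library of set 2, Bcl2l1 scored 147.2 and Mllt4 191.8, below the 204.4 of set 2. Dsp, Tro and the region with no listed gene scored 335.0, 227.1 and 337.9 there.

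Another 31 regions had a member peak in both Mettl3 libraries and in no Mettl14 library. The strongest was on Safb2, a nuclear scaffold attachment factor, with 294 tags in set 1 and 293 in set 2 and folds of 6.52 and 4.72. Its summit lay in an intron of the longest coding transcript and in an exon of another transcript. Smek1, named Ppp4r3a in the annotation, encodes a subunit of protein phosphatase 4 and had 197 and 251 tags in its 5′ UTR. Dynll2, a dynein light chain, had 179 and 191 tags, Utp6, a ribosome assembly factor, had 186 and 153, and Zbtb45, a zinc finger gene, had 163 and 151. Zbtb45 lay 746 nt from a scramble peak on the same gene. In set 2 all 5 regions scored between 119.4 and 167.2, below the lowest score given for a scramble peak, 204.4. Absence of a member peak in the other knockdown was not tested as a difference between the knockdowns.

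The regions were mostly far from any scramble peak. The median gap to the nearest scramble peak on the same strand was 62.6 kb (quartiles 5.58 and 383 kb), and 363 regions (70.2%) were over 10 kb away. A scramble peak lay within 200 nt of 47 regions (9.09%) and at between 200 and 1000 nt from 45 (8.70%). Peaks of 1 knockdown library with no scramble peak had a median gap of 70.2 kb. Of these, 10.7% were within 1000 nt of a scramble peak, against 17.8% of the regions. On named genes there were 382 regions (73.9%). Of these, 205 (53.7%) were on a gene with no scramble peak and 177 (46.3%) on a gene that had one elsewhere. That last share was close to the 45.0% of single-library peaks on a gene, 498 of 1106. Counted by gene, 371 of the 4974 genes with a knockdown peak carried a member (7.46%), 200 of them with no scramble peak.

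At the limit of the rule, the smallest gaps were 1 nt in AC123686.1 (Zfp853 in the annotation), 4 nt in Son and 9 nt in Ccdc8, in Kif20b and in a region with no listed gene. Just outside it, a Mettl14 peak with no listed gene overlapped a scramble peak by 4 nt, 1 in Scara3 by 7 nt and 1 in Dusp27 by 12 nt. The Dusp27 peak held 253 tags at a fold of 4.98, and the Son region, 3061 nt wide, held 491 tags in the Mettl14 and 547 in the Mettl3 library of set 1 at folds of 4.42 and 4.21. The Scara3 peak held 16 tags at a fold of 32.9, and the AC123686.1 region 7 tags at 149.

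Most genes carried a single region: 350 had 1, 19 had 2 and 2 had 3. The pair with 3 were AC123686.1 and Zfhx3, a large homeobox and zinc finger factor. In Zfhx3 the regions lay in 3 different exons, were in 4, 2 and 3 libraries, and were 598, 1425 and 3502 nt from scramble peaks of the same gene. In AC123686.1 2 of the 3 rested on 1 library each, with 7 and 12 tags. Gdf6 and Gpr39, a zinc-sensing receptor, had 2 regions each and no scramble peak. Irs1, the insulin receptor substrate, had 2 regions that were 130 and 602 nt from scramble peaks of the gene.

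Coding sequence held the largest share of members, though a smaller one than of recurrent peaks with a scramble peak. By the summit of the strongest peak, 213 of 517 regions (41.2%, Wilson 95% interval 37.0 to 45.5) lay in coding sequence, against 54.6% of recurrent peaks with a scramble peak. The stop codon window, 100 nt to either side, held 38 (7.35%) against 13.1%, and the 3′ UTR 65 (12.6%) against 16.3%. In 5′ UTRs there were 33 (6.38%) against 2.36%, in introns 41 (7.93%) against 5.76%, and in stretches with no annotated gene on the strand 116 (22.4%) against 5.96%. Peaks of 1 knockdown library with no scramble peak went further the same way, with 24.8% in coding sequence and 30.1% with no gene on the strand. Of the 40 regions in all 4 libraries, 26 (65%, interval 49.5 to 77.9) were in coding sequence and 4 (10%) had no gene on the strand. These intervals cover counting error only, and peaks of several libraries at 1 place are not independent.

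**Figure D5:**
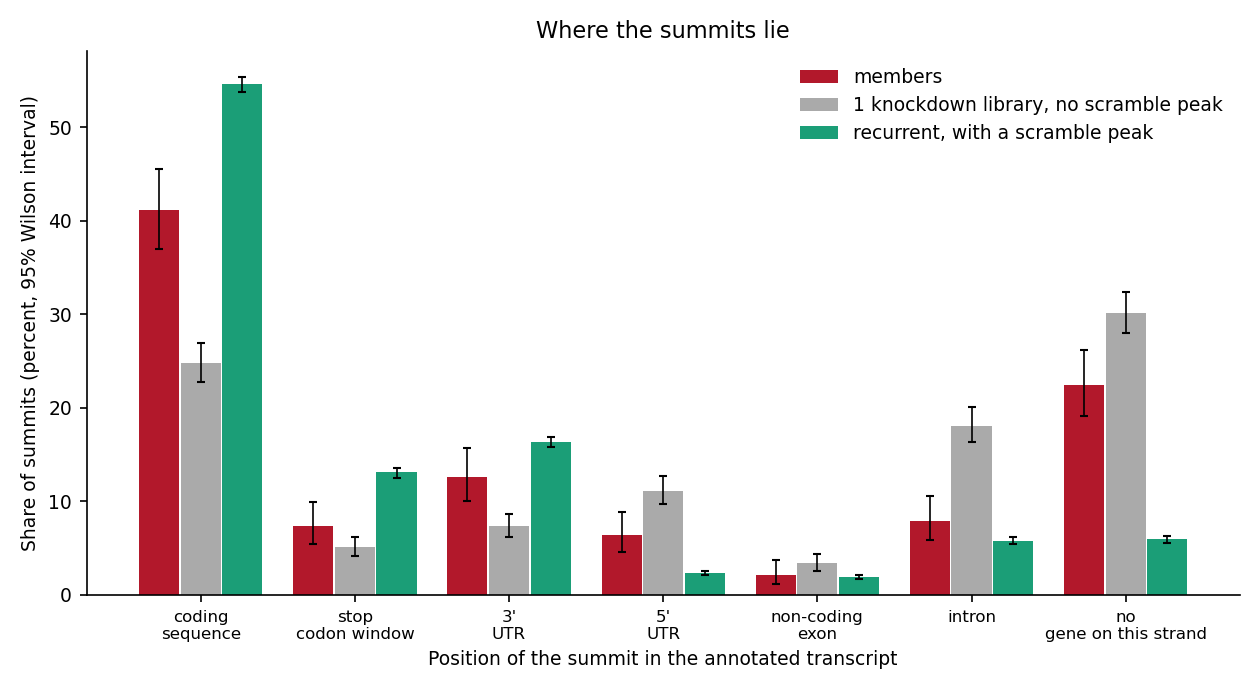
Share of summits (vertical, percent, with 95% Wilson intervals) in each part of the annotated transcript for the 517 members, for peaks of 1 knockdown library with no scramble peak and for recurrent peaks with a scramble peak. Members stand between the other classes in coding sequence (41.2% beside 24.8% and 54.6%) and in stretches with no gene on the strand (22.4% beside 30.1% and 5.96%).

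The regions with no gene on their strand often lay opposite one. Of these 116, 50 (43.1%) had their summit in an exon of a gene on the other strand and 14 (12.1%) in an intron of one, whereas among the 914 recurrent peaks with a scramble peak and no gene on the strand 26.7% lay opposite an exon. Of the 510 single-library peaks with no scramble peak and no gene on the strand, 42.9% did, much like the members. A scramble peak on the opposite strand overlapped 45 regions (8.70%), against 5.50% of recurrent peaks with a scramble peak. Of the 45, 36 (80%) had no listed gene, against 99 of the other 472 regions, and the median highest tag count was 15 in the 45 and 29 in the others. Whether reads of the opposite strand took part in these listings was not tested.

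Where the summit was exonic, the exon was long. Of 376 regions with an exonic summit, 284 (75.5%) were in exons over 1000 nt, with a median exon of 1950 nt, close to 78.3% and 1929 nt for recurrent peaks with a scramble peak. Peaks of 1 knockdown library with no scramble peak had 49.5% and 975 nt, and of all exonic bases in the longest coding transcripts 50.8% were in such exons.

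GGACT was about as frequent in members as in recurrent peaks with a scramble peak, and DRACH was less frequent. The stretch of 50 nt to either side of the summit could be read from transcripts for 367 regions and was searched on the transcript strand alone. GGACT, which is 1 form of DRACH, was present in 24.3% of members (Wilson 95% interval 20.1 to 28.9), in 25.5% of recurrent peaks with a scramble peak, in 20.4% of single-library peaks and in 9.97% of all windows of that length tiled over coding transcripts. Any DRACH was present in 89.4% of members (interval 85.8 to 92.1), 94.2% of recurrent peaks with a scramble peak (93.8 to 94.5), 87.7% of single-library peaks (85.4 to 89.7) and 86.3% of tiled windows. Base composition differed too, with 55.7% GC in members, 56.3% in recurrent peaks with a scramble peak and 48.8% in tiled windows. By library, GGACT was in 27.1% and 21.4% of member peaks of the Mettl14 libraries of set 1 and set 2 and in 28% and 19.0% of the Mettl3 libraries, with intervals that overlap. Regions of 100 or more tags held GGACT in 20.9% and DRACH in 81.4% of windows, no more than members as a whole.

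Summits of the same region fell close together across libraries. The median distance was 14 nt between the libraries of a set, 14 nt between the 2 libraries of a knockdown, and 11 nt between different knockdowns in different sets, where 74.5% were within 50 nt. Recurrent peaks with a scramble peak had medians of 11, 16 and 15.5 nt. The rule asked for overlap and not for matching summits, although an overlap of narrow peaks limits how far apart summits can be.

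Of the 16 pluripotency genes with a knockdown peak, 6 (37.5%) carried a member, beside 7.46% of all genes with such a peak. Beside Zfp281, Sall1 and Fgf5 they were Nr5a2, Esrrb and Klf4, which all encode factors that sustain naive pluripotency. Nr5a2 had 88 and 99 tags in the Mettl14 libraries of set 1 and set 2 and 64 in the Mettl3 library of set 2. It had a scramble peak elsewhere on the gene. Esrrb had 58 tags in the Mettl14 library of set 1 and 62 in the Mettl3 library of set 2, at its stop codon and with no scramble peak on the gene. Klf4 had 51 and 32 tags in the same pair of libraries, in a 3′ UTR region 2168 nt from a scramble peak. The lists were drawn up with results of these data known, so this share is a description and no independent evidence.

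Chromatin regulators carried members in 6 of 36 genes with a knockdown peak (16.7%), beside 7.46% of all such genes, and 1 of the 6 had no scramble peak. Jarid2, a subunit of Polycomb complex PRC2, had 371 and 473 tags in the Mettl14 libraries of set 1 and set 2 and 389 in the Mettl3 library of set 2. Its folds of 2.87, 2.84 and 3.42 were at the low end of all member peaks, which ranged from 2.84 to 502, and it had no scramble peak. Its scores of 112.2, 138.5 and 187.7 were all below the lowest given for a scramble peak of the set, 142.5 and 204.4. The 5-methylcytosine oxidases Tet1 and Tet2 were both listed in the Mettl14 library of set 2 and in both Mettl3 libraries. Tet1 had 550, 127 and 415 tags there and Tet2 had 133, 102 and 97, and both genes had scramble peaks elsewhere. Kmt2a, listed as Mll1, a histone H3 lysine 4 methyltransferase, had 57, 177 and 102 tags in the Mettl14 libraries of set 1 and set 2 and the Mettl3 library of set 2. Bptf, a remodeller subunit, had 125 tags in the Mettl14 and 104 in the Mettl3 library of set 2. Both Bptf peaks scored below 204.4, at 154.9 and 149.7. Kmt2a and Bptf also had scramble peaks elsewhere on the gene.

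Germ layer and developmental factors had a member in 5 of 31 genes (16.1%), beside 7.46% of all genes with a knockdown peak, and 4 of the 5 had no scramble peak. Cdx2, a trophectoderm factor, had 42 and 51 tags in the Mettl14 libraries of set 1 and set 2 and 38 in the Mettl3 library of set 1, in its 3′ UTR. Foxc1, a forkhead factor of mesoderm, had 38 in the Mettl14 library of set 1 and 37 and 42 in the Mettl3 libraries. A second Foxc1 region, at the stop codon, had 11 tags in the Mettl14 library of set 2 and 12 in the Mettl3 library of set 1. Sox9, a factor of cartilage and neural crest, had 17 and 16 tags in the set 1 libraries, and the Iroquois factor Irx5 had 14 and 17 in those of set 2. The Irx5 peaks scored 186.0 and 162.2, below the 204.4 that is the lowest given for a scramble peak of set 2. Irx2 of the same family had 47 and 58 tags in the Mettl14 libraries and lay 247 nt from a scramble peak.

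Signalling genes carried members in 4 of 43 (9.30%), close to the 7.46% of all genes. They were Irs1, Smad3, which transmits Nodal and TGF-beta signals, the receptor Notch3, and Fgfr2. The Fgfr2 entry rests on a region listed for both Chst15 and Fgfr2 at chr7:132237749-132238472 (-), which lies at the stop codon of Chst15, a sulfotransferase gene that the annotated Fgfr2 locus spans. It had 64, 47, 49 and 36 tags in all 4 libraries, 584 nt from a scramble peak. The Notch3 region, with 69 and 63 tags in the set 2 libraries, was intronic. Smad3 had 27 and 53 tags in the same libraries, with scores of 144.1 and 181.9, below the 204.4 that is the lowest given for a scramble peak of set 2.

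Of the remaining lists, zinc finger genes carried members in 26 of 251 (10.4%), beside 7.46% of all genes with a knockdown peak. Cell cycle and p53 genes carried them in 2 of 15 (13.3%, Gadd45a and Jun) and RNA processing genes in 1 of 8 (12.5%, Son). Gadd45a, a DNA damage response gene, had 125 and 92 tags in the Mettl3 libraries and a scramble peak on the opposite strand. Jun, a subunit of AP-1, had a member peak in the Mettl3 library of set 2 alone, with 68 tags, 64 nt from a scramble peak. None of 5 ribosomal and housekeeping genes and none of 13 m6A machinery genes with a knockdown peak carried a member. Lists this short do not set these counts apart from the 7.46% of all genes. Mettl3 and Mettl14 had no listed peak, so the tables do not check the knockdowns. Of 10 ES cell markers Esrrb, Sall4 and Sox2 had a listed peak while the others, Pou5f1 and Nanog among them, had none, and of 18 feeder fibroblast markers Ccn1, Col5a1, Pdgfra, Pdgfrb and Thy1 had one. None of these 5 carried a member. A peak list does not give the level of a transcript, and in these bulk libraries fewer cells of a type and less RNA per cell cannot be told apart.

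The region with the most tags, named after its values were seen, was on Msh6, a DNA mismatch repair gene, with 823 in the Mettl14 library of set 1 and 928 and 785 in the Mettl3 libraries of set 1 and set 2. Its folds were 4.49, 3.66 and 4.61, and a scramble peak lay on the opposite strand. Srsf4, a splicing factor, and Nisch, which encodes nischarin, followed the same form, with 421 to 538 tags at folds of 3.13 to 3.70 and with 489 to 555 tags at folds of 3.26 to 3.53. These regions of many tags and low fold stood at 1 end of the range of member peaks. Gdf6, Pde4b and Tmem132c, with few tags and high fold, stood at the other. Between them were the 521 member peaks of 20 to 99 tags, with a median fold of 18.6. Both ends occurred in all 4 libraries.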

How the data were processed

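IP libraries were made from fragmented poly(A) RNA, per the labels' protocols. The submitters' processing notes name TopHat2 2.0.6, Bowtie 0.12.7, Picard 1.74, SAMtools 0.1.18, cutadapt 1.1, CASAVA 1.8.2 and the build mm10, without an order and without the version of the peak caller. Per the file headers, the authors' 4 tables hold MACS peaks that were called by strand, with each IP set against a control library of its own. Deposited columns are the tag count of a peak, the fold enrichment (a ratio of IP to control), a scaled ratio, a score (minus 10 times log10 p) and an FDR in percent, at most 9.99. Tags count reads without molecular identifiers.

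Knockdown lists came from the peak columns and scramble lists from the paired scramble columns plus peaks of the scramble library alone. Sets only separate the tables: which replicate number belongs to a set is not stated. Summits were placed on the longest coding transcript of the listed gene in GENCODE M21, which holds 6026 of 6097 listed gene IDs (98.8%). The values of a region are those of its peak with most tags in a library. Python 3.11.15, SciPy 1.17.1 and Matplotlib 3.10.9 were used, and the member rule was tested on 3 simulated lists. No test was made, since the lists chose the members. Members, gene lists and the naming rule were chosen with earlier results of these data known. The rule named the regions in all 4 libraries with most tags (10) or highest fold (5), the 5 strongest of each knockdown alone, up to 30 on listed genes, the 5 genes with most regions, the 3 widest and those at the limit; others were named after their values were seen, and 1 gene that the rule names is not reported here.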

Additional observations from a re-analysis of the deposited data

How the results depend on the processing

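The count of 517 regions stayed within 1.5 times under 8 of its alternatives outside leave-one-out, from 370 (both sets, partner peaks counted) to 522 (50% overlap). Among these, scramble lists from the tables of either knockdown alone had to give 517 again, since both tables of a set hold the same scramble library. With a scramble peak within 1000 nt counted, an alternative chosen after seeing the data, the count was 429. It was 340 with no scramble peak on the gene, 169 in at least 3 libraries (partner peaks counted), 261 with knockdown FDR at 5%, 66 at 1%, 321 with all FDR at 5%, 261 with 20 or more tags, and, chosen after seeing the data, 199 above the own scramble floor and 90 above the higher one. Leaving out a library gave 294 to 1392, with 294 without Mettl14 set 1, 333 without Mettl14 set 2 and 1392 without scramble set 1. GGACT was present in 13.4% within 25 nt of the summit, 35.9% within 100 nt and 19.2% within 50 nt of the peak centre, and DRACH in 69.9% within 25 nt and 98.9% within 100 nt. Over any transcript, 10.4% lay at stop codons and 5.03% in introns. The median fold of member peaks over other knockdown peaks was 1.99, 2.04, 2.81 and 1.84 (Mettl14 set 1 and 2, Mettl3 set 1 and 2); with 20 or more tags it was 0.967, 1.15, 1.09 and 0.965, so the direction turned in 2 libraries. No paired analysis was possible because the result comes from no test.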
